A study of Mus musculus with 8 samples.

Results

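Accessible chromatin regions were examined at the loci of 10 genes that encode epithelial junction proteins and the epithelial splicing regulators, namely *Cldn1*, *Cldn3*, *Cldn4*, *Cldn7*, *Ocln*, *Tjp1*, *F11r*, *Epcam*, *Esrp1* and *Esrp2*. A locus was the annotated gene span plus 20 kb on each side, in the mm10 build (GRCm38) with GENCODE vM21 annotation, and every FAIRE peak overlapping it was included. The 8 peak lists were merged into 37230 regions, of which 43 lay at these loci, and the 10 genes were taken from 21924 protein-coding genes. *Cldn3* and *Cldn4* are neighbors on chromosome 5 and their loci shared 1 region.

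Tight junctions seal the space between epithelial cells. Claudins and occludin (encoded by *Ocln*) cross the membrane and form the seal, JAM-A (encoded by *F11r*) is an immunoglobulin-type adhesion molecule of the junction, and ZO-1 (encoded by *Tjp1*) anchors these proteins to actin. EpCAM is an adhesion molecule of simple epithelia, while ESRP1 and ESRP2 bind RNA and maintain epithelial splice forms. Reduced expression of many of these genes is a known feature of the epithelial-mesenchymal transition (EMT). FAIRE (formaldehyde-assisted isolation of regulatory elements) recovers DNA that is free of crosslinked protein, so a FAIRE peak marks open chromatin and does not measure transcription.

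The libraries came from EpH4 cells, a mouse mammary gland epithelial line, and EpRas cells, their derivative transformed with H-Ras, either untreated or given 1 ng/ml TGF-β3 for 8 days. There were 4 groups with 2 libraries each, which the study describes as biological replicates. Untransformed and transformed cells are each represented by 1 line, and the lines were also grown in different serum, 10% for EpH4 and 4% for EpRas, so that Ras transformation, line and serum cannot be told apart. The lists held between 10821 and 27337 peaks, the longest being the first TGF-β-treated EpRas library, and the number of reads behind them was unknown. Because the lists give no reads, a region without a peak in a library was below the authors' limit there and was not shown to be closed. Among 5 epithelial markers, a peak within 2 kb of a start site was called for *Krt8* in 5 libraries, *Krt18* in 3 and *Cdh1* in 4, and for *Krt19* and *Epcam* in 0. The 9 leukocyte, endothelial and adipocyte markers had 0 such libraries, and of 3 neuronal markers *Tubb3* had 2.

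For each locus, the number of peaks was counted in each library. For each region, the score percentile was the rank of its highest-scored peak among all peaks of that library, from 0 to 100, and it was set to 0 where no peak was called. A difference was counted where the 4 libraries of a group did not overlap the other 4, which is also the only way for the exact permutation test to reach its smallest two-sided p-value of 0.0286. That test was run over all 25479 regions and 14317 gene loci called in at least 2 libraries. After Benjamini-Hochberg adjustment over all of them, 0 regions and 0 loci passed 0.05 in either contrast. Without adjustment, 2313 regions and 759 loci reached it for the lines, and 503 regions and 69 loci for TGF-β. Differences below are therefore unadjusted, and their adjusted p-values are given.

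The DNA sequences below belong to regions with differences described in the following paragraphs and to the *F11r* promoter, which separated neither the lines nor the treatments. They are read 5′ to 3′ on the plus strand of GRCm38.p6, cover up to 300 bases around the middle of each region and leave out annotated untranslated sequence. Capitals mark matches on either strand to TGAGTCA (AP1), CCGGAAG (ETS), TGTGGTT (RUNX), CAGGTG (an E-box bound by ZEB and SNAIL proteins) or AACCGGTT (grainyhead-like proteins). The distance in each name is counted along the gene from its annotated 5′ end. The first 3 are regions whose score percentile was higher in all EpH4 libraries than in any EpRas library. They lie at chr5:134946935-134947221, chr5:134981393-134981692 and chr5:135002182-135002481.
Cldn4 -0.1 kb: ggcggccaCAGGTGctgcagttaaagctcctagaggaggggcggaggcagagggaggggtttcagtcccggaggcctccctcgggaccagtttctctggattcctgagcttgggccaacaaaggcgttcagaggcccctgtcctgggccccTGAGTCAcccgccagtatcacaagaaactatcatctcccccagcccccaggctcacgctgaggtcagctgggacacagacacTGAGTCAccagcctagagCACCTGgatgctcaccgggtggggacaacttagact
Cldn3 -4.7 kb: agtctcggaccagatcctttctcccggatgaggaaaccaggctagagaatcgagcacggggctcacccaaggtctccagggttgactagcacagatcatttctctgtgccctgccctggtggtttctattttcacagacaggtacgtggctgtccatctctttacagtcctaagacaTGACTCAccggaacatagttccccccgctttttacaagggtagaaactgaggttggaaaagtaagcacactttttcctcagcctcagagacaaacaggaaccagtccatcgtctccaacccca
Cldn3 +16.1 kb: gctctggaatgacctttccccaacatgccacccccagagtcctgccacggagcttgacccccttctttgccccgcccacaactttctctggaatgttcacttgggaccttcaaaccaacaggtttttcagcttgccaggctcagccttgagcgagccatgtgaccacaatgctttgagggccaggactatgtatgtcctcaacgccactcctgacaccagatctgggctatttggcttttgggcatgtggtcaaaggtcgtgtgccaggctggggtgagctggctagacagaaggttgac
The *Cldn4* promoter window, just upstream of the transcribed part, held 2 AP1 matches and 2 E-box matches. The intergenic *Cldn3* window at -4.7 kb held 1 AP1 match. The intergenic *Cldn3* window at +16.1 kb held none of the 5 motifs.

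The next 3 windows are intergenic regions at *Cldn4* that were called in both treated EpRas libraries and in 0 untreated ones, at chr5:134942789-134943088, chr5:134955518-134955817 and chr5:134959164-134959463. The last window is the *F11r* promoter, at chr1:171437307-171437534, which was called in all 8 libraries and overlaps a noncoding exon of *Gm26641*.
Cldn4 +4.0 kb: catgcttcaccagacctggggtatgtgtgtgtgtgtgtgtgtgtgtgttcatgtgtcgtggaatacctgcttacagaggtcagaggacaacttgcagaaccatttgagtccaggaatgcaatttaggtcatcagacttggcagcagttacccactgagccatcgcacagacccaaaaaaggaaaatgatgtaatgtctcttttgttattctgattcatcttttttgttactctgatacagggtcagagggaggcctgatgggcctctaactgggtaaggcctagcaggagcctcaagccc
Cldn4 -8.7 kb: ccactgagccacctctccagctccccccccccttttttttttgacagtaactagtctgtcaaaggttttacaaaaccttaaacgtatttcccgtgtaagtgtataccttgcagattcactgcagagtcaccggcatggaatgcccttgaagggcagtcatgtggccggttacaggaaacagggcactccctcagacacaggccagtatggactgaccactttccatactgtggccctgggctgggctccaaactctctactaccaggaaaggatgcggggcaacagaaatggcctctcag
Cldn4 -12.4 kb: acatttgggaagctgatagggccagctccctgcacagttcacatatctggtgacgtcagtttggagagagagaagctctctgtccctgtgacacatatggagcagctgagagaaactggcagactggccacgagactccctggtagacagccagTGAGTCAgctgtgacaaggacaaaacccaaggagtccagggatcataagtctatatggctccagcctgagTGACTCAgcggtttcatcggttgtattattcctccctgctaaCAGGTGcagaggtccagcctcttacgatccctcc
F11r -0.1 kb: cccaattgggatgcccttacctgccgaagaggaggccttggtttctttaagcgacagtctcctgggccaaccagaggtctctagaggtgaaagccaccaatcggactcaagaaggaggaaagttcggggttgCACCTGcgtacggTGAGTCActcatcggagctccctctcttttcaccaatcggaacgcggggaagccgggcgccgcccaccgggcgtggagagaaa
Of these, the *Cldn4* window at -12.4 kb held 2 AP1 matches and 1 E-box match, and the *F11r* promoter held 1 of each. The other *Cldn4* windows held none of the 5 motifs. Over all 43 regions, 11 (25.6%) held the E-box letters within 300 bp, against 18.4% of all 37230 regions. AP1 letters were held by 11 (25.6%), against 34.7%. Among all regions, AP1 letters were in 14.3% of those at start sites and 44.2% of the others. Start sites made up 41.9% of the member regions and 31.7% of all regions. ETS letters were found in 6.98% of the member regions and 6.58% of all regions, RUNX letters in 11.6% and 11.5%, and the grainyhead-like letters in 0 of 43 and 0.185%. These shares are descriptions of fixed letters, and no match says only that the letters are not in the window. In RefSeq promoter sequences (250 bases before to 50 after the start), 8 members were present. Of these, 6 (*Cldn3*, *Cldn4*, *Cldn7*, *Ocln*, *F11r* and *Epcam*) held the E-box letters, against 22.6% of 27025 genes. AP1 letters were in 2 of the 8 (*Cldn4* and *F11r*), against 5.95%, and ETS letters in 1 (*Cldn7*), against 9.93%. RUNX and grainyhead-like letters were in 0 of the 8, against 6.09% and 0.174%. Median GC content was 53.3% in the member regions and 49% in all regions.

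Among the 43 regions, 8 lay within 2 kb of a start site of their own gene, 10 at a start site of another gene, 10 in a gene body, 10 in the upstream flank and 5 in the downstream flank. Start sites of any gene thus made up 41.9% of them, against 31.7% of all regions. A peak was called in all 8 libraries at 6 regions (14%, against 11.4% of all regions) and in a single library at 14 (32.6%, against 31.6%). The heatmap of score percentiles shows all of them, and they fall unevenly over the genes.

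**Figure D1:**
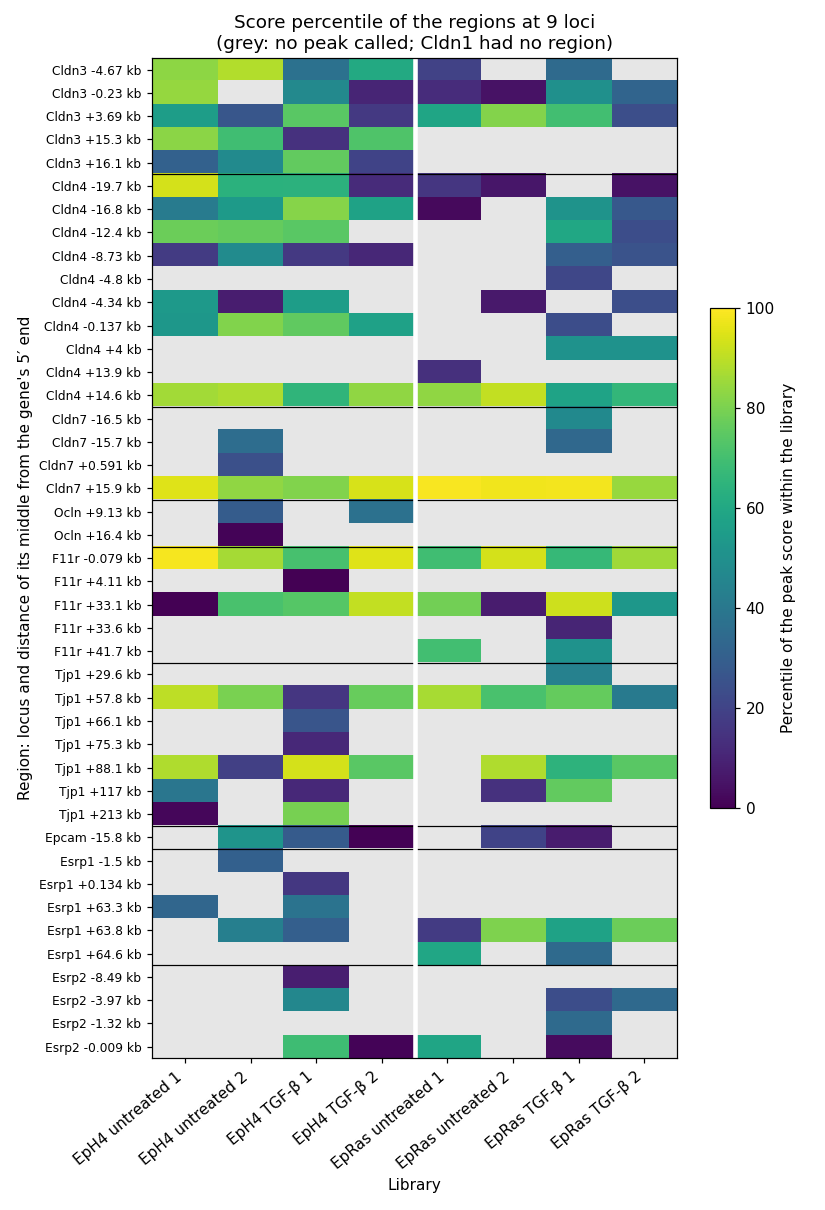
Score percentile of each of the 43 regions (rows, named by locus and by distance in kb from the gene's 5′ end; the region shared by *Cldn3* and *Cldn4* is shown at *Cldn4*) in the 8 libraries (columns), with grey where no peak was called. Many *Cldn3* and *Cldn4* rows were higher in the 4 EpH4 columns, *Cldn3* +3.69 kb and *Cldn4* +4 kb had higher means in EpRas cells, and *F11r* -0.079 kb and *Cldn7* +15.9 kb were called in all 8 libraries.

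The promoters of the member genes ranged from called in every library to called in none. The *F11r* promoter had a peak in 8 libraries, the *Cldn3* promoter in 7, *Cldn4* in 5, *Esrp2* in 4, *Esrp1* in 2 and *Cldn7* in 1. No peak was called within 2 kb of a start site of *Cldn1*, *Ocln*, *Tjp1* or *Epcam* in any library. Across all protein-coding genes, 57.6% had no promoter peak in any library and 10.6% had 1 in all 8.

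Next, the number of peaks per locus was compared. *Cldn3*, which encodes a sealing claudin of simple epithelia, had 7 and 5 peaks without TGF-β and 6 and 6 with it in EpH4 cells, against 4 and 3 without and 3 and 4 with it in EpRas cells. Every EpH4 library was above every EpRas library. The means were 6 ± 0.816 and 3.5 ± 0.577 (SD, n = 4 each), a difference of -2.5 (exact permutation test, p = 0.0286, adjusted p = 0.539). *Cldn3* was the only locus of the 9 tested with more peaks in EpH4 cells without overlap, and 0.608% of all gene loci tested were called in that direction. None of the 9 had more peaks in EpRas cells, where the background was 4.69% of loci. Per 10000 peaks of the library the groups at *Cldn3* still did not overlap, as at 6.05% of all loci. With the peaks counted per 100 peaks within 5 Mb, an alternative chosen after seeing the data, the *Cldn3* groups overlapped. They also overlapped with only the higher-scored peaks and with flanks of 50 kb, and with flanks of 2 kb the difference was 0.25.

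*Cldn4*, the neighboring claudin gene, had 7 and 7 peaks without TGF-β and 7 and 5 with it in EpH4 cells. In EpRas cells it had 4 and 3 without and 7 and 7 with TGF-β. The untreated EpRas libraries were the lowest of all 8, and the treated EpRas libraries matched untreated EpH4 cells in number. The means of the lines, 6.5 ± 1 and 5.25 ± 2.06, did not separate (difference -1.25, exact permutation p = 0.429). The TGF-β difference was 4.5 peaks larger in EpRas than in EpH4 cells (p = 0.167 by permutation of the line labels, which cannot give a p-value under 0.0556). With lists of equal length, both *Cldn3* and *Cldn4* had more peaks in every EpH4 library than in any EpRas library, and 2.54% of all loci did so.

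The other loci had fewer peaks and their groups overlapped. The adhesion gene *F11r* had 2 to 3 peaks in EpH4 libraries and 2 to 4 in EpRas libraries. *Tjp1*, the longest gene of the set, had 2 to 6 and 1 to 4, and *Cldn7*, another claudin gene, had 1 to 3 in both lines. *Ocln* had 0, 2, 0 and 1 peaks in the EpH4 libraries and 0 in all 4 EpRas libraries, and *Epcam* had 0 or 1 in each library. At the locus of *Cldn1*, a claudin of skin and other barrier epithelia, no list held a peak, and the nearest peak of any library was 39.9 kb away. Such empty loci made up 28.2% of all protein-coding genes.

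The splicing factor genes differed from each other. *Esrp1* had 1, 2, 3 and 0 peaks in the EpH4 libraries and 2, 1, 2 and 1 in the EpRas libraries. *Esrp2* had no peak in untreated EpH4 cells and 3 and 1 with TGF-β, against 1 and 0 in EpRas cells left untreated and 3 and 1 with TGF-β. The treated libraries had 2 ± 1.15 *Esrp2* peaks and the untreated libraries 0.25 ± 0.5 (difference 1.75, exact permutation p = 0.0857), and 1 untreated EpRas library equaled the lowest treated libraries. Counted per 10000 peaks of the library, the treated libraries were all above the untreated at *Esrp2*, as were 0.775% of loci. That order turned on list length. Treated EpRas replicate 2 had 1 peak in a list of 16833, and untreated EpRas replicate 1 had 1 peak in 17210. The libraries with 3 peaks were those with the longest list of each line. On the plain counts, 0 of the 9 loci had more peaks with TGF-β without overlap and 0 had fewer, where the background was 0.433% and 0.0489% of loci.

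**Figure D2:**
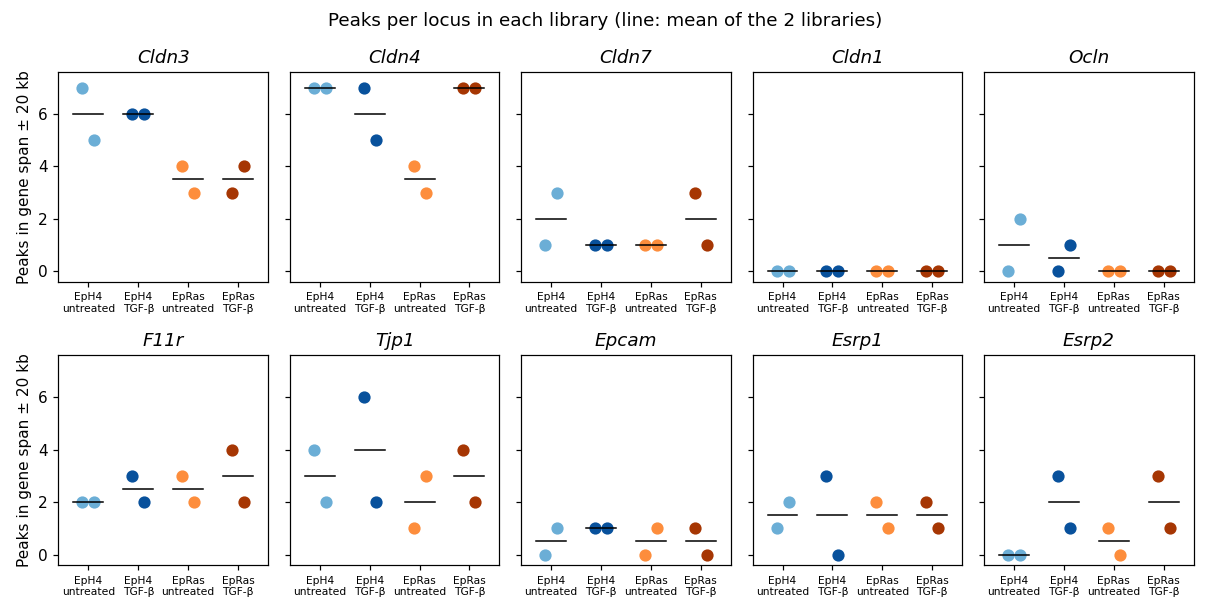
Number of peaks in the gene span plus 20 kb on each side (vertical axis) at each of the 10 loci, for the 2 libraries of each group (points) with their mean (line). At *Cldn3* all EpH4 libraries (5 to 7 peaks) lie above all EpRas libraries (3 to 4), and at *Cldn4* the untreated EpRas libraries (3 and 4) are the lowest.

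The peaks around each locus were counted as well, because the lines differed in where on the chromosomes their peaks lay. Within 5 Mb of *Cldn3*, without the locus itself, the EpH4 libraries had 107 to 122 peaks per 10000 peaks of the library and the EpRas libraries 63 to 68.6. Chromosome 5 as a whole held 7.11% to 7.71% of the peaks in EpH4 libraries and 5.4% to 5.76% in EpRas libraries. In plain counts these surroundings held 152, 151, 192 and 127 peaks in EpH4 and 118, 91, 175 and 106 in EpRas libraries, which overlapped. The lower number of peaks at *Cldn3* in EpRas cells went together with a smaller share of each list in the surrounding megabases. At *Tjp1* the surroundings went the other way, with 15.2 to 20.6 peaks per 10000 in EpH4 and 31.1 to 34.5 in EpRas libraries. Per 100 surrounding peaks, *Tjp1* was higher in all EpH4 libraries, as were 4.39% of loci. Around *F11r* the ranges were 39.6 to 46.6 and 46.5 to 54.5. The part of these wider differences in the counts at the loci was not tested.

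**Figure D3:**
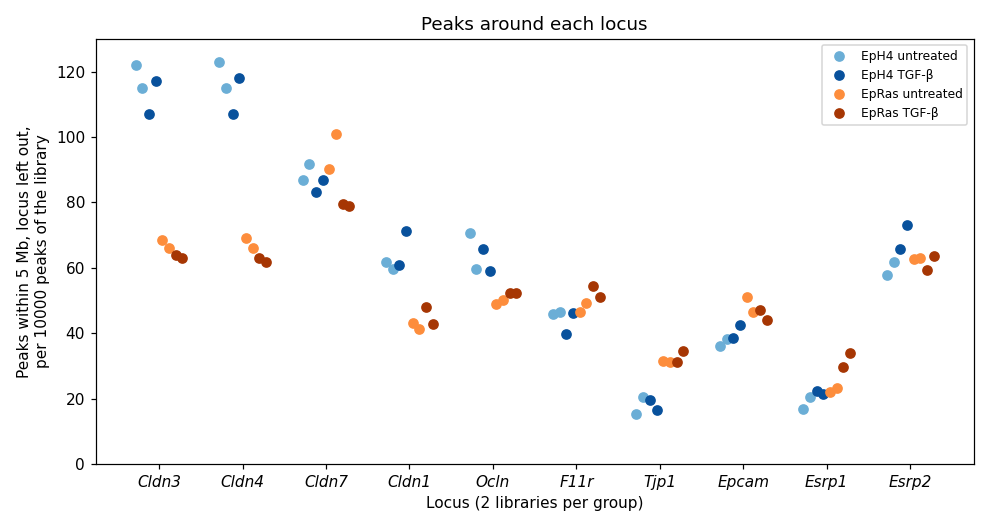
Peaks within 5 Mb of each locus, with the locus itself left out, per 10000 peaks of the library (vertical axis), for the 8 libraries at each of the 10 loci (points colored by group). Around *Cldn3* the EpH4 libraries lie at 107 to 122 and the EpRas libraries at 63 to 68.6, and around *Tjp1* the order is the opposite.

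Over the 10 loci together, EpH4 cells had 21 and 23 peaks untreated and 29 and 18 with TGF-β, and EpRas cells 15 and 13 untreated and 27 and 17 with TGF-β. Per 10000 peaks of the library this was 16.2 to 17.6 in EpH4 cells and 8.72 to 10.1 in EpRas cells. Outside the *Cldn3* and *Cldn4* loci the numbers were 6.42 to 9.48 and 4.16 to 6.22, so that the gap was wider with these neighboring genes than without them. These sums describe a chosen set of genes and were not tested.

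Of the 43 regions, 29 were called in at least 2 libraries and entered the tests, 13 at *Cldn3* and *Cldn4* and 16 at the other loci. The score percentile of 4 of them was higher in all EpH4 libraries than in any EpRas library, and 2.18% of all regions tested were. All 4 lay at *Cldn3* and *Cldn4*. In the opposite direction there were 0 of 29, with a background of 6.9%. When only peaks with a score of at least the pooled median were kept, none of the 4 separated the lines, since several of their peaks fell below that score.

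The largest of these differences was at the *Cldn4* promoter, at -0.137 kb. Its score percentiles in EpH4 cells were 53.1 and 81.2 untreated and 75.4 and 57.3 with TGF-β. In EpRas cells they were 0 and 0 untreated and 23.7 and 0 with TGF-β. The promoter was thus called in every EpH4 library and in a single, treated EpRas library, which had the longest list. The means were 66.7 ± 13.6 and 5.92 ± 11.8 (SD, n = 4 each), a difference of -60.8 (exact permutation test, p = 0.0286, adjusted p = 0.315).

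The *Cldn3* region at +15.3 kb, at the start of *Wbscr25*, had score percentiles of 82.5, 69.4, 14.3 and 72.5 in the EpH4 libraries and no peak in any EpRas library. The difference of the means was -59.7 (exact permutation p = 0.0286, adjusted p = 0.315). At the adjacent region, +16.1 kb, the EpH4 libraries were at 31.1, 47.9, 75.8 and 20.3 and the EpRas libraries again had no peak, a difference of -43.8 with the same p-values by the same exact test. Both regions were called in every EpH4 library, treated or not.

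At -4.67 kb from *Cldn3*, EpH4 cells had score percentiles of 83.1 and 88.5 untreated and 37.3 and 60.9 with TGF-β. EpRas cells had 19.8 and 0 untreated and 34.4 and 0 with TGF-β. The lowest EpH4 library exceeded the highest EpRas library by only a few percentiles. The means were 67.4 ± 23.4 and 13.5 ± 16.7, a difference of -53.9 (exact permutation p = 0.0286, adjusted p = 0.315). With lists of equal length the libraries overlapped at this region and at +15.3 kb, while the differences were -56.9 and -53.8.

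At further regions of the cluster the libraries of the lines overlapped. The region shared by both loci, at -19.7 kb from *Cldn4*, was at 93.6, 63.9, 64.3 and 12.4 in EpH4 and at 15.7, 6.18, 0 and 5.02 in EpRas libraries (difference -51.8, exact permutation p = 0.0571). The *Cldn3* promoter, at -0.23 kb, was at 84, 0, 46.9 and 10.3 in EpH4 and at 12.5, 4.72, 50 and 32.4 in EpRas libraries, and did not separate them (exact permutation p = 0.686). The region with the highest mean at *Cldn3*, +3.69 kb in a noncoding exon of *Wbscr25*, was called in all 8 libraries, at 16.5 to 74.3 in EpH4 and 23.9 to 81.6 in EpRas cells. Regions that separated the lines thus lay next to regions called in both.

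**Figure D4:**
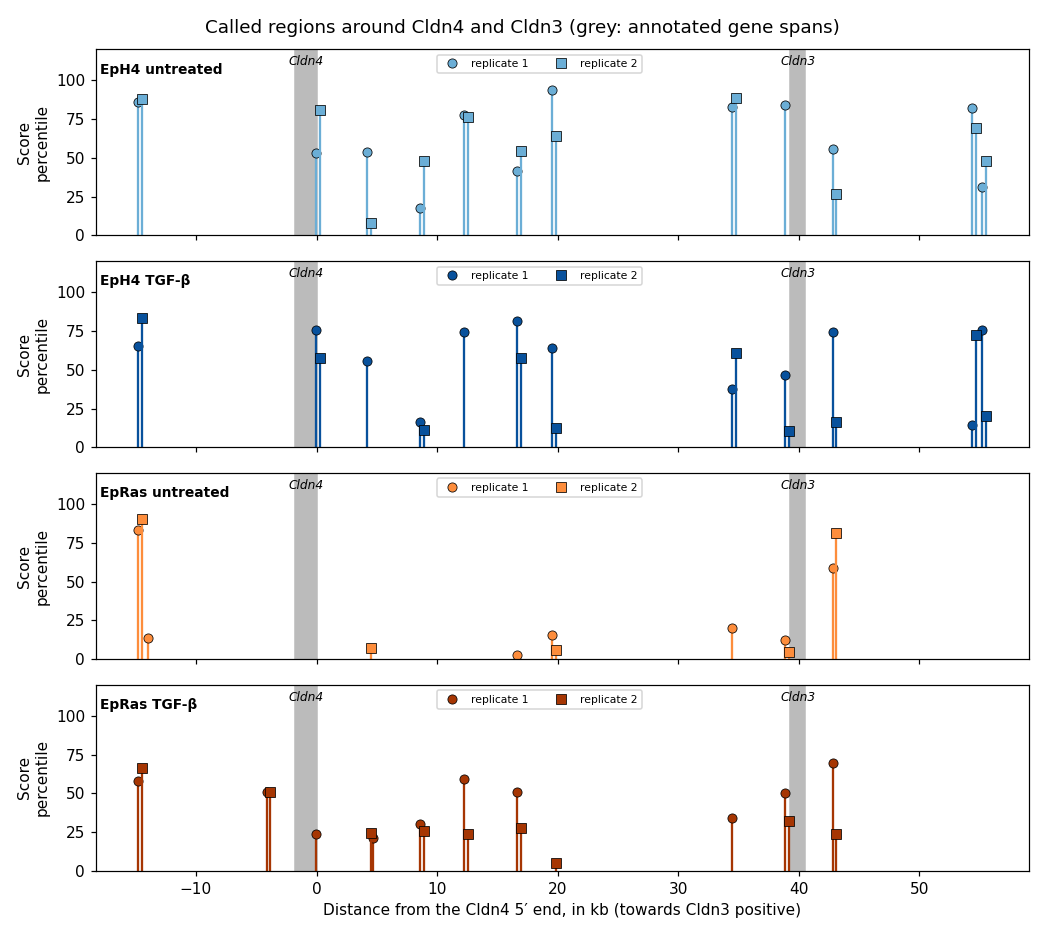
Score percentile (vertical axis) of the regions around *Cldn4* and *Cldn3* against distance from the *Cldn4* 5′ end in kb (horizontal axis, positive towards *Cldn3* and so upstream of *Cldn4*), with 1 panel per group, circles and squares for replicates 1 and 2, and no symbol where no peak was called. Untreated EpRas cells had few and low peaks between the genes, while the regions at the left end (*Mettl27* promoter) and just beyond *Cldn3* (+3.69 kb) were called in all 8 libraries.

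The cluster was set beside its surroundings, since peaks near it were also a smaller share of the list in EpRas cells. Of the 13 tested regions in the cluster, 4 (30.8%) were higher in EpH4 cells without overlap. The cluster is the part of the loci that holds all 4 of the called regions, and its regions are neighbors. Its values here are thus descriptions and were not tested. Within 5 Mb, with the cluster left out, 8 of 191 regions (4.19%) were higher in EpH4 cells, and 1 (0.524%) was higher in EpRas cells. On the remainder of chromosome 5 the shares were 5.39% and 4.39%. The median difference between EpRas and EpH4 cells was -36.4 percentiles in the cluster, -13 within 5 Mb, -3.89 on chromosome 5 and 9.66 over all regions.

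Outside the cluster, 0 of 16 tested regions separated the lines. Of all regions tested, 2.18% were higher in EpH4 and 6.9% in EpRas cells, so that 0 of 16 lies near these shares. The *F11r* promoter was called in all 8 libraries, at 98.5 and 86.5 untreated and 70.8 and 95 with TGF-β in EpH4 cells, and at 69.4 and 93.5 untreated and 67 and 85.8 with TGF-β in EpRas cells. All its values lay in the upper part of each list. The *Cldn7* region with the highest values, +15.9 kb from that gene at the start sites of *Elp5* and *Ctdnep1*, was at 81.1 to 95.1 in EpH4 and 84.4 to 98.9 in EpRas libraries. The *Cldn7* promoter itself was called in a single untreated EpH4 library, at 24.4.

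At *Tjp1* the peaks were called in the annotated gene span, mostly outside exons, and none within 2 kb of a start site. Distances are counted from the 5′ end of that span, where the annotation used held no transcript start. Both *Tjp1* regions named next thus have positive distances but lie upstream of the nearest annotated *Tjp1* start. The *Tjp1* region with the highest mean, at +57.8 kb and outside exons, was called in all 8 libraries. It was at 15.7 to 90.1 in EpH4 and 40.8 to 86.9 in EpRas cells. Another region outside exons, at +88.1 kb, was called in 7 libraries and missing in 1 untreated EpRas library. The *Ocln* intronic region at +9.13 kb was called in 2 EpH4 libraries, at 29 and 37.2, and in 0 EpRas libraries. The only *Epcam* region, at -15.8 kb, was called in 5 libraries, all at or below 51.6.

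At *Esrp1*, which encodes an epithelial splicing regulator, the promoter was called in 2 EpH4 libraries at different positions, with score percentiles of 30.8 and 16.3. Its region with the highest mean, +63.8 kb at the start sites of *Dpy19l4* and *Gm26663*, was at 0, 43.3, 30.3 and 0 in EpH4 libraries and 17.4, 80.5, 57.6 and 77.7 in EpRas libraries. The EpRas mean was higher by 39.9, with overlap (exact permutation p = 0.0857, adjusted p = 0.505). The *Esrp2* promoter region, at -0.009 kb, also lay within 2 kb of a start site of *1810019D21Rik*. It was at 0 and 0 untreated and 68.9 and 0.91 with TGF-β in EpH4 cells. In EpRas cells it was at 58.9 and 0 untreated and 2.82 and 0 with TGF-β. The replicates of the treated EpH4 and untreated EpRas groups lay far apart, and the lines did not separate (difference -2.02, exact permutation p = 0.886).

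The effect of TGF-β over both lines was examined next. A single region of 29 separated the treatments, with higher values in untreated cells, and 0.212% of all regions did so. It was the *Mettl27* promoter in the downstream flank of *Cldn4*, at +14.6 kb, where a 5′ untranslated region is annotated. In EpH4 cells it was at 86.3 and 87.8 untreated and 65.5 and 83.4 with TGF-β, and in EpRas cells at 83.5 and 90.7 untreated and 58.1 and 66.2 with TGF-β. The highest treated value was just below the lowest untreated value. The means were 87.1 ± 2.98 and 68.3 ± 10.7 (SD, n = 4 each), a difference of -18.8 (exact permutation test, p = 0.0286, adjusted p = 0.961). With lists of equal length the treatments overlapped there, with a difference of -39.4. In the other direction, 0 of 29 regions were higher with TGF-β without overlap, against 1.76% of all regions.

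Within EpRas cells, 6 of the 29 regions were higher in both treated libraries than in both untreated ones (20.7%, background 27%) and 2 were lower (6.9%, background 6.1%). Of those 6, 5 lay at *Cldn3* and *Cldn4*, as did the 2 that were lower. Within EpH4 cells, 3 were higher with TGF-β (10.3%, background 12.1%) and 5 were lower (17.2%, background 8.27%). Of these, 1 of the 3 and 4 of the 5 lay at *Cldn3* and *Cldn4*, which held 13 of the 29 regions. With 2 libraries against 2, no exact test can give a p-value under 0.333, so these counts were not tested.

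The region at +4.0 kb from *Cldn4* had a peak in each treated EpRas library, at 50.8 and 50.8, and in none of the other 6. It was the only such region of the 29, and 6.16% of all regions showed this pattern. At -16.8 kb, EpH4 cells were at 41.6 and 54.5 untreated and 81.8 and 57.8 with TGF-β, and EpRas cells at 2.39 and 0 untreated and 51.2 and 27.4 with TGF-β. Treated libraries were higher in both lines at this region, and the untreated EpRas libraries were close to 0. At *Esrp2*, a region at -3.97 kb was called in 3 treated libraries, at 46.4 in EpH4 and at 23.7 and 34 in EpRas cells, and in no untreated library (exact permutation p = 0.143).

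At 2 regions upstream of *Cldn4*, both treated libraries were below both untreated ones in EpH4 cells and above them in EpRas cells. The share of all regions with this order was not counted. Taken separately, 8.27% of all regions tested had the EpH4 order and 27% the EpRas order. The means moved in opposite directions at other regions as well, where libraries overlapped. The region at -8.73 kb was at 17.4 and 48.1 untreated and 16.6 and 11.2 with TGF-β in EpH4 cells, and at 0 and 0 untreated and 30.4 and 25.7 with TGF-β in EpRas cells. At -12.4 kb, EpH4 cells were at 77.6 and 76.2 untreated and 74.6 and 0 with TGF-β, and EpRas cells at 0 and 0 untreated and 59.4 and 23.5 with TGF-β. Both regions were absent from the untreated EpRas lists and present in the treated ones. The TGF-β difference was larger in EpRas than in EpH4 cells by 46.9 percentiles at -8.73 kb (p = 0.0556, the smallest that permuting the line labels can give) and by 81.1 at -12.4 kb (permutation p = 0.167).

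**Figure D5:**
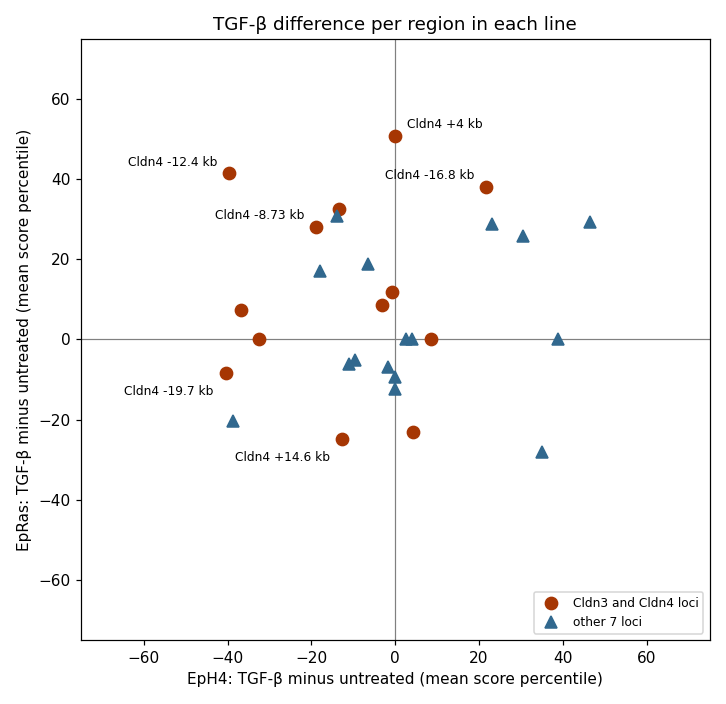
TGF-β-treated minus untreated mean score percentile in EpH4 cells (horizontal axis) and in EpRas cells (vertical axis) for the 29 tested regions, with circles for the *Cldn3* and *Cldn4* loci and triangles for the other 7 loci. The regions at -8.73 and -12.4 kb from *Cldn4* lie at the upper left, lower with TGF-β in EpH4 and higher in EpRas cells.

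Finally, other genes of the same structures were counted at their loci in the same way. Peaks in at least 2 libraries were found at 15 of 20 other tight junction genes, 7 of 8 apical polarity genes, 12 of 13 adherens junction and desmosome genes, 7 of 10 epithelial transcription and splicing regulators and 5 of 6 genes whose exons ESRP proteins splice. In each of these lists 0 loci separated the lines and 0 separated the treatments. Of all loci tested, 4.69% had more peaks in EpRas and 0.608% in EpH4 cells without overlap. With TGF-β, 0.433% had more and 0.0489% fewer. In lists of 5 to 15 tested loci, counts of 0 lie near these shares. The median difference between EpRas and EpH4 cells was 0.25, 0.75, 0.25, -0.25 and 0.75 peaks in that order, -0.25 for the members and 0.5 for all loci tested.

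Among tight junction genes, the claudin gene *Cldn12* had 1 to 3 peaks in EpH4 and 3 to 4 in EpRas libraries, and the scaffold gene *Magi1* had 2 to 5 and 3 to 8. *Cldn6* and *Cldn9*, which are neighbors with the same peaks, had a difference of 0.75 peaks, and the adhesion gene *Cxadr* had a difference of -0.75. In the adherens junction, *Cdh1* (E-cadherin) had 3, 3, 5 and 2 peaks in EpH4 libraries and 2, 1, 1 and 1 in EpRas libraries, a difference of -2 (exact permutation p = 0.0571). Its catenin partner *Ctnnd1* had the opposite difference of 2. The desmosomal linker gene *Dsp* differed by -1.5, the plakophilin gene *Pkp3* by 0.75 and the polarity gene *Pard3* by 2.5 peaks. Of the other polarity genes, *Crb3* differed by 1 peak and *Prkci* and *Mpp5* by 0.75 each. *Rbm47*, which encodes an RNA-binding protein of epithelia on chromosome 5, differed by -1.5, and the transcription factor gene *Ovol1* by -0.75. In the same list *Elf3* and *Klf5* differed by 0.5 each and *Ovol2* by -0.5.

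Of the genes spliced by ESRP proteins, *Fgfr2*, which encodes a growth factor receptor with alternative epithelial and mesenchymal exons, had the most peaks. EpH4 cells had 13 and 11 untreated and 27 and 12 with TGF-β, and EpRas cells 30 and 19 untreated and 43 and 27 with TGF-β. The lines overlapped, with a mean difference of 14 peaks (exact permutation p = 0.0857). *Cd44* and *Scrib* each differed by 0.75 peaks, and *Nf2* by -0.5.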

How the data were processed

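The data were FAIRE-seq peak lists of 8 libraries, 2 in each of 4 groups taken from the sample labels. Reads from an Ion Proton sequencer were aligned by the authors to mm10 using bowtie2, and peaks came from MACS2 (version 2.0.9 in the submitters' processing notes). Each deposited line gave a position and the score of the authors' peak caller. What the score measures is not given in the sources used here, so it served only to rank and filter peaks. Longer lists can reflect deeper sequencing.

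Peaks of the 8 lists (129466) were merged by overlap of at least 1 bp with Python 3.11.15, numpy 2.4.6 and pandas 2.3.3, and sequence was read with pysam 0.24.0. Lines (4 libraries against 4) and treatments were compared by two-sided exact permutation tests over 70 assignments with Benjamini-Hochberg adjustment over all regions or loci, and TGF-β effects between lines over 36 assignments. The code was tested on simulated data. The sequence of 1 further region is not reported here.

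Named at each locus were the region nearest the start site within 2 kb, the region with the highest mean, regions without overlap between groups and regions called in both libraries of only 1 group. From each further gene list, the loci with the largest differences were named. The members and lists were chosen with earlier results of these data known. The alternatives were equal list length, higher-scored peaks, scaled counts, other flanks, 100 bp overlap, presence or absence, a replicate block and leaving out each library.

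The replicate numbers were checked as pairs. Deviations from the group means of libraries with number 1 had correlations of -0.00453 to 0.0338 over 6 pairs, 0 of them above 0.1, so the numbers did not pair the samples.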

Additional observations from a re-analysis of the deposited data

Results flagged for a closer look

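At the *Cldn4* region at -8.73 kb, both treated EpH4 libraries were below both untreated ones and both treated EpRas libraries were above both untreated ones. The TGF-β difference was 46.9 percentiles larger in EpRas than in EpH4 cells (exact permutation of the line labels, p = 0.0556, the smallest this design allows). Of all 25479 regions tested, 487 reached that p-value.

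The *Cldn4* region at -12.4 kb had the same opposite order, with a difference of the TGF-β effects of 81.1 percentiles (exact permutation p = 0.167). How many of all regions had this order was not counted. In EpH4 cells the untreated libraries were at 77.6 and 76.2 and the treated ones at 74.6 and 0. The fall in EpH4 cells thus lay mostly in TGF-β replicate 2, which had the shortest list (10821 peaks).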

How the results depend on the processing

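The depth of the libraries was unknown, so an absent peak could not be told from a shallow list. Percentages in parentheses are the shares of all regions or loci tested under the same setting. With lists of equal length, 4 regions were higher in EpH4 cells (4.37%), and *Cldn3* -4.67 and +15.3 kb were not among them. No region was higher in untreated cells (count 0, 0.844%), and 2 loci (*Cldn3* and *Cldn4*) had more peaks in EpH4 cells (2.54%). With only the higher-scored peaks, 0 regions (0.721%) and 0 loci (0.184%) were higher in EpH4 cells and 1 locus (*Esrp1*) had more peaks in EpRas cells (4.4%). By presence or absence of a call alone, 2 regions were higher in EpH4 cells (1.1%) and 0 in untreated cells (0.0275%). Merging by 100 bp overlap moved no count of member regions, and a promoter limit of 1 kb left 6 of the 8 regions at a start site of their own gene. Scaling the peaks per 10000 peaks of the library (0.775%), per 1000 peaks of the chromosome (0.873%) or, chosen after seeing the data, per 100 peaks within 5 Mb (0.887%) gave 1 locus (*Esrp2*) with more peaks under TGF-β each. At *Esrp2* the closest treated and untreated libraries had 1 peak each, so that only the scaling set them apart. Per 100 peaks within 5 Mb, *Tjp1* and not *Cldn3* was the locus higher in EpH4 cells (4.39%). Flanks of 2 kb (0.581%) and of 50 kb (0.633%) left 0 loci with more peaks in EpH4 cells, and with 2 kb the difference at *Cldn3* was 0.25 in place of -2.5. The cause was not tested.

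With the replicate number as a replicate block, where no p-value under 0.125 is possible, 1 region was higher in EpRas cells (12.7%), 2 with TGF-β (5.26%) and 3 in untreated cells (1.38%), and 1 locus (*Esrp2*) had more peaks with TGF-β (2.23%). The block gave 6 regions higher in EpH4 cells in place of 4, while the share of all regions went from 2.18% to 4.07%.

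Leaving out each library in turn gave 4 to 6 regions higher in EpH4 cells (2.46% to 4.21%) and 0 to 1 higher in EpRas cells (7.97% to 13.3%), with 1 each when EpRas TGF-β replicate 2 or EpRas untreated replicate 1 was left out. It gave 0 to 1 higher with TGF-β (2.49% to 6.06%), with 1 without EpH4 TGF-β replicate 2, and 1 to 2 higher in untreated cells (0.336% to 1.11%), with 2 without EpRas untreated replicate 2. Loci with more peaks under TGF-β numbered 0 to 1 (0.513% to 2.98%), with 1 without EpRas untreated replicate 1.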
